A study of Mus musculus with 6 samples.

Results

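Kallikreins are secreted serine proteases, and Spink5 encodes LEKTI, the Kazal-type inhibitor that holds several of them in check in the epidermis. The 10 genes described here are Klk5, Klk6, Klk7, Klk8, Klk9, Klk10, Klk11, Klk13, Klk14 and Spink5, chosen by name as kallikreins of skin and their inhibitor, out of 47729 genes in the deposited table. All 10 were found, and all 10 passed the filter on low counts in which 17023 genes were kept and tested. The RNA came from epidermis of wild-type C57BL/6 mice, split from the dermis with Dispase II. There were 3 libraries from skin given AKBA gel and 3 from skin given a blank control gel. AKBA is the usual short name of a boswellic acid from frankincense resin. The sample descriptions of the control group carry the letters IMQ without spelling them out, and the sources used here give no further treatment, age, dose or number of animals. Because no label ties the libraries of a group to separate animals, the p-values measure the spread between these libraries only, which may be technical.

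In the outermost epidermis, kallikreins are released by granular keratinocytes and cut the corneodesmosomes that hold dead cells together, which lets the surface shed. In human skin KLK5 can activate itself and other kallikreins, among them KLK7 and KLK14. Loss of SPINK5 causes Netherton syndrome in humans, in which unrestrained protease activity breaks the barrier, and mice without Spink5 die after birth with a detached stratum corneum. All of this concerns enzyme activity, whereas the values here are transcript levels.

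Libraries held 19066045 to 22760432 counts, so that 3 counts correspond to 0.132 to 0.157 CPM (each library scaled to the same total, with TMM correction). The tissue was keratinocyte-rich: the list of granular and cornified layer markers summed to 46479 to 84469 CPM with AKBA gel, against 37094 to 54849 CPM with control gel. None of the 19 genes of that list was at 0, but Krt2, at 0.048 to 0.585 CPM, did not pass the filter on low counts. Fibroblast markers were also present, at 19584 to 26091 CPM with AKBA gel, against 19246 to 35747 CPM with control gel, as were skeletal muscle markers, at 4939 to 5590 CPM with AKBA gel, against 3848 to 7833 CPM with control gel. By these markers the samples held more than epidermis, although the RNA is described as epidermal, and the marker sums varied between libraries. In such bulk samples, fewer cells of a type and less RNA per cell cannot be told apart. Control library 3 stood apart for these genes, being the highest of the 6 libraries for 7 of the 10. AKBA library 2 was the lowest for 4 of them, AKBA library 3 for 3 and control library 2 for 3.

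No member changed at an adjusted p below 0.05. edgeR's quasi-likelihood test with Benjamini-Hochberg adjustment called 0 of the 10 members and 0 of 17023 genes, a background of 0%, while 2291 genes had an unadjusted p below 0.05. By fold, 7 of the 10 were lower with AKBA gel, and the median log2 fold change of the 10 was -0.47, beside 0.00 over all genes tested. The genes fell into those near no difference (Klk5, Klk7, Klk8, Klk11 and Spink5) and those with a lower mean in AKBA gel skin by log2 values of -1.05 to -0.78 (Klk6, Klk9, Klk10, Klk13 and Klk14), a split made after the values were seen. At an unadjusted p below 0.05, 4 of the 10 were lower (Klk6, Klk9, Klk10 and Klk13), against a background of 7.01% of all genes, or 1193 genes. For 3 of the 10 (Klk6, Klk9 and Klk13) all AKBA libraries lay under all control libraries, against 9.1% of all genes (1549 genes). The count by unadjusted p rested on single libraries: without AKBA library 2 none of the 10 had an unadjusted p below 0.05, and without control library 3 only 1 did. The number of all genes with an unadjusted p below 0.05, in either direction, was also smaller there, at 1251 of 17404 without AKBA library 2 and 1293 of 17294 without control library 3, against 2291 of 17023 with all 6 libraries.

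Other tests gave the same directions with other calls. The DESeq2 Wald test called 289 of the 17501 genes to which it gave an adjusted p (1.65%), and none was a member; Klk10 came closest, with a DESeq2 adjusted p of 0.0567. The authors' deposited table calls 273 of its 47729 genes (0.572%), and 1 member is among them, Klk10, with a log2 fold change of -1.0 and a false discovery rate of 0.0368 in the authors' deposited table. There, Klk6, Klk9 and Klk13 have false discovery rates of 0.126, 0.132 and 0.124 in the authors' deposited table and are not called.

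**Figure D1:**
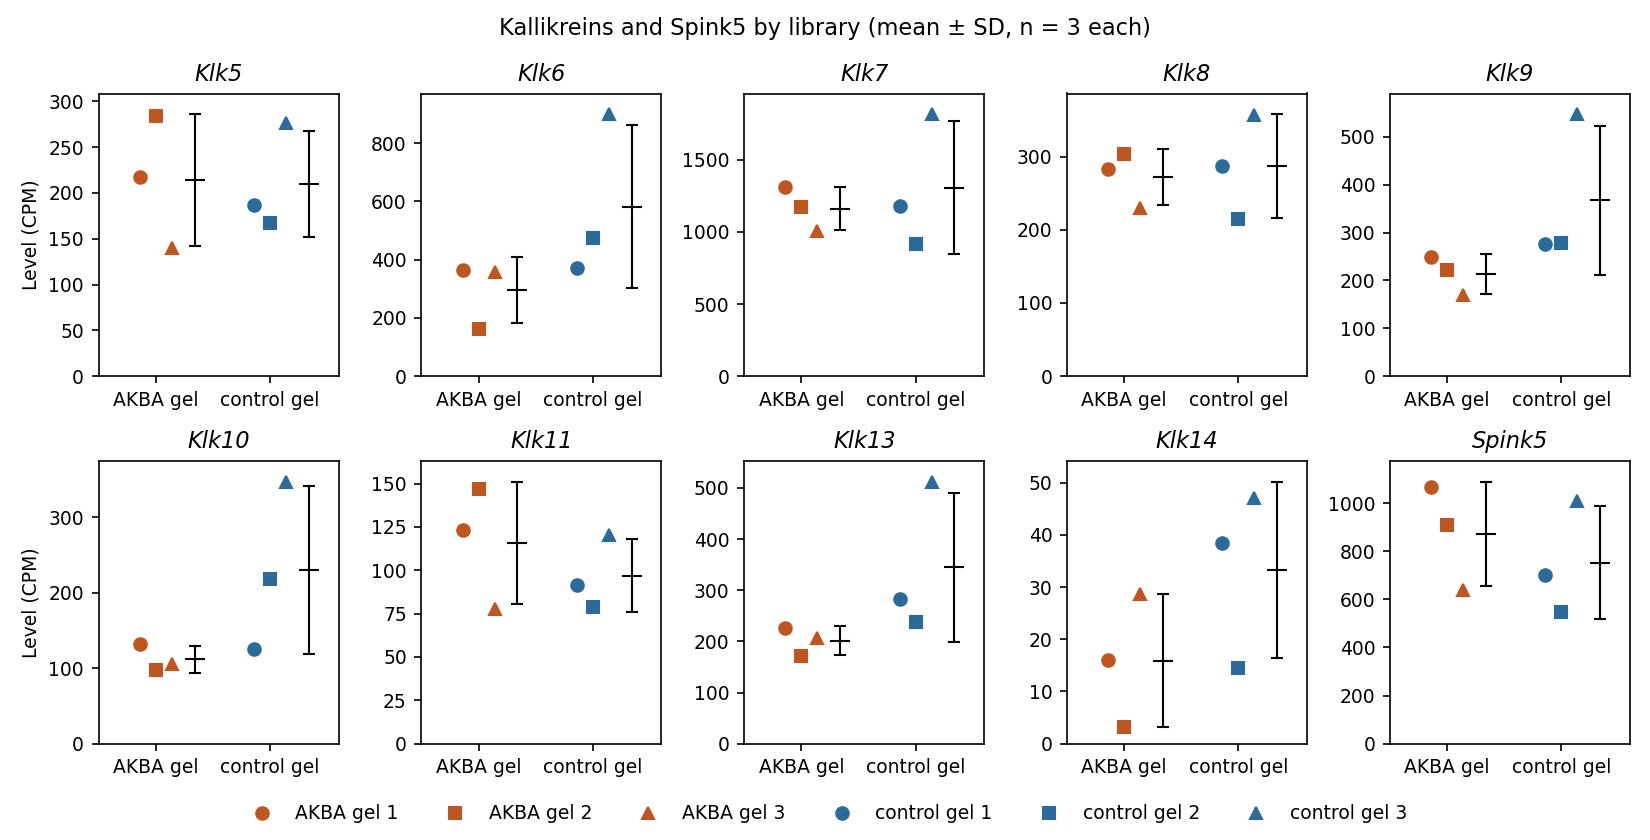
Level in CPM of each kallikrein and of Spink5 (y axes, from 0) in the 3 AKBA gel libraries (orange, left) and the 3 control gel libraries (blue, right); points are libraries, horizontal bars are means and error bars are SD. Klk6, Klk9 and Klk13 do not overlap between the groups, and control library 3 is the highest point in 7 of the 10 panels.

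Levels of different genes can be compared only per length, for which the deposited FPKM values (fragments scaled by transcript length and library total) were used. Klk7, a chymotrypsin-like protease that cuts corneodesmosin and desmocollin 1, had the highest level in every library, at 617 ± 54.6 FPKM with AKBA gel, against 671 ± 192 FPKM with control gel (SD, n = 3 each). It made up 38.6% to 40.3% of the summed FPKM of the 9 kallikreins with AKBA gel and 30.7% to 36.9% with control gel. Klk14 had the lowest level in every library, at 12.9 ± 10.8 FPKM with AKBA gel and 25.5 ± 12.0 FPKM with control gel (SD, n = 3 each).

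Between these ends the order differed by group, and most neighbours could not be separated. With AKBA gel it ran Klk6 (198 FPKM), Spink5 (183), Klk8 (178), Klk5 (160.1), Klk9 (145), Klk13 (88.6), Klk10 (82.1) and Klk11 (79.1 FPKM), as means. With control gel it ran Klk6 (372 FPKM), Klk9 (242), Klk8 (182), Klk10 (163), Klk5 (154), Spink5 (154), Klk13 (146) and Klk11 (64.8 FPKM), as means. In AKBA gel skin the ranges of Klk6, Spink5, Klk8, Klk5 and Klk9 overlapped, as did those of Klk13, Klk10 and Klk11, while the lowest Klk9 library (121.9 FPKM) lay above the highest Klk13 library (96.2 FPKM). In control gel skin the ranges of neighbours overlapped from Klk6 down to Klk13, and Klk11 (55.6 to 75.3 FPKM) lay below all of these. Among the 10 genes Klk6 held rank 2 in 5 of the 6 libraries and rank 6 in AKBA library 2.

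Klk5 and Klk7, the proteases best known from desquamation, were near no difference. Klk5, a trypsin-like protease, had 217, 284 and 139.8 CPM with AKBA gel, against 187, 167 and 276 CPM with control gel. The control values lay inside the AKBA range, and the log2 fold change was 0.03 ± 0.29 (SE; edgeR adjusted p = 0.978). Klk7 had 1309, 1170.1 and 1006 CPM with AKBA gel, against 1182, 917 and 1815 CPM with control gel. Control libraries 3 and 2 were the highest and the lowest of all 6, so that the AKBA values lay inside the control range. Its log2 fold change was -0.17 ± 0.27 (SE; edgeR adjusted p = 0.821), and it was 0.15 without control library 3.

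Klk14, a trypsin-like protease that in human skin can cut desmoglein 1, was the most variable member. It had 15.9, 3.24 and 28.6 CPM with AKBA gel and 38.4, 14.4 and 47.0 CPM with control gel. AKBA library 2 was far below the rest, and control library 2 lay below AKBA libraries 1 and 3. The log2 fold change of -1.05 ± 0.70 (SE; edgeR adjusted p = 0.536) was as large as that of Klk10 but carried the widest error of the 10 genes. It was -0.58 without AKBA library 2 and -1.78 without AKBA library 3.

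Klk8 and Klk11 were likewise within the spread of the libraries. Klk8, also called neuropsin, is a trypsin-like protease of brain and skin, and it had 284, 303 and 229 CPM with AKBA gel, against 287, 215 and 357 CPM with control gel. The AKBA values lay inside the control range, with a log2 fold change of -0.07 ± 0.21 (SE; edgeR adjusted p = 0.905). Klk11, a trypsin-like protease also called hippostasin, had 123, 147 and 77.5 CPM with AKBA gel and 91.4, 79.1 and 120.4 CPM with control gel. AKBA library 3 was the lowest of the 6 and AKBA library 2 the highest. The log2 fold change was 0.26 ± 0.25 (SE; edgeR adjusted p = 0.685), and it was 0.05 without AKBA library 2 and 0.49 without AKBA library 3.

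Klk6, a trypsin-like protease known as neurosin in brain, ranked next to Klk7 in mean kallikrein level. It had 366, 163 and 357 CPM with AKBA gel, against 371, 473 and 898 CPM with control gel. AKBA library 1 and control library 1 were close, and the distance between the groups came mostly from the low AKBA library 2 and the high control library 3. The log2 fold change was -0.98 ± 0.41 (SE; edgeR adjusted p = 0.364). Without both of those libraries it was -0.22. They were the lowest AKBA and the highest control library for Klk6, so leaving both out had to shrink the difference.

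Klk9, whose function in skin is little known, and Klk13, a trypsin-like protease of stratified epithelia, had similar profiles. Klk9 had 249.4, 222 and 169 CPM with AKBA gel, against 277, 278 and 547 CPM with control gel, a log2 fold change of -0.78 ± 0.29 (SE; edgeR adjusted p = 0.344). Klk13 had 226, 171 and 207 CPM with AKBA gel, against 283, 239 and 512 CPM with control gel, a log2 fold change of -0.78 ± 0.28 (SE; edgeR adjusted p = 0.340). In both, the groups did not overlap, and control library 3 lay well above the other control libraries. Without control library 3 the log2 fold changes were -0.38 for Klk9 and -0.37 for Klk13.

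Klk10, which in human studies is described as lost in many epithelial tumours, had the lowest p of the members. It had 131.7, 97.6 and 106.1 CPM with AKBA gel, against 124.8, 218 and 347 CPM with control gel. Control library 1 lay below AKBA library 1, while control libraries 2 and 3 lay above every AKBA library. The log2 fold change was -1.04 ± 0.34 (SE; edgeR unadjusted p = 0.016, adjusted p = 0.336), and leaving out each library in turn gave -1.33 to -0.62.

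**Figure D2:**
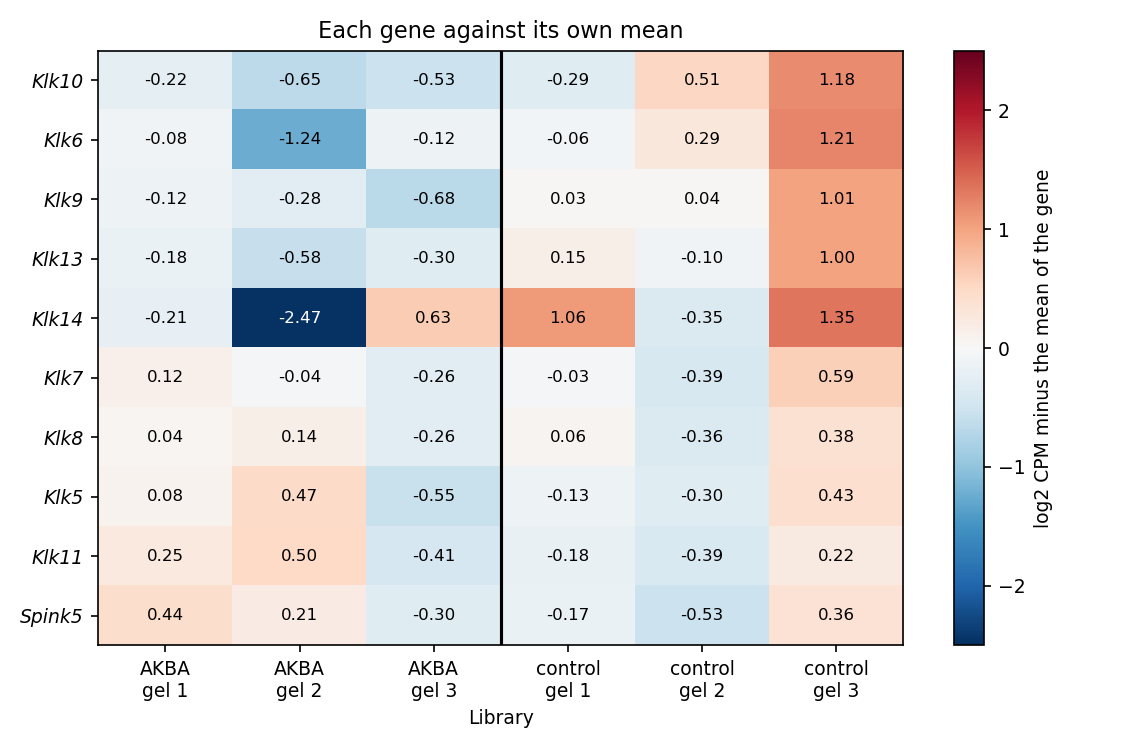
Log2 CPM of each gene (rows) minus its own mean over the 6 libraries (columns, AKBA gel left of the line); blue is below and red above the mean. Control library 3 is above the mean for all 10 genes, and AKBA library 2 is at -2.47 for Klk14 and -1.24 for Klk6 but at 0.50 for Klk11 and 0.47 for Klk5.

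The 9 kallikreins lie in 1 cluster on mouse chromosome 7, all on the plus strand (GRCm38, GENCODE M21). From the lower coordinate the genes are Klk14 (43690418 to 43695536), Klk13 (43712567 to 43727534), Klk11 (43774604 to 43779263), Klk10 (43781035 to 43785410), Klk9 (43791891 to 43796757), Klk8 (43797577 to 43803826), Klk7 (43811294 to 43816359), Klk6 (43824499 to 43832030) and Klk5 (43841971 to 43851181). The genes of the lower set did not form 1 block along this row: Klk11 lies between Klk13 and Klk10, Klk8 and Klk7 lie between Klk9 and Klk6, and Klk5 follows Klk6. Klk12, which is not a member and had a log2 fold change of -1.95, lies between Klk13 and Klk11. The ratio of Klk9 to Klk8 in FPKM was 0.918, 0.764 and 0.767 with AKBA gel and 1.01, 1.35 and 1.597 with control gel, without overlap. The ratio of Klk10 to Klk11 was 1.14, 0.711 and 1.46 with AKBA gel and 1.46, 2.95 and 3.08 with control gel, where AKBA library 3 and control library 1 had nearly the same value. These pairs were chosen after their values were seen and were given no test.

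**Figure D3:**
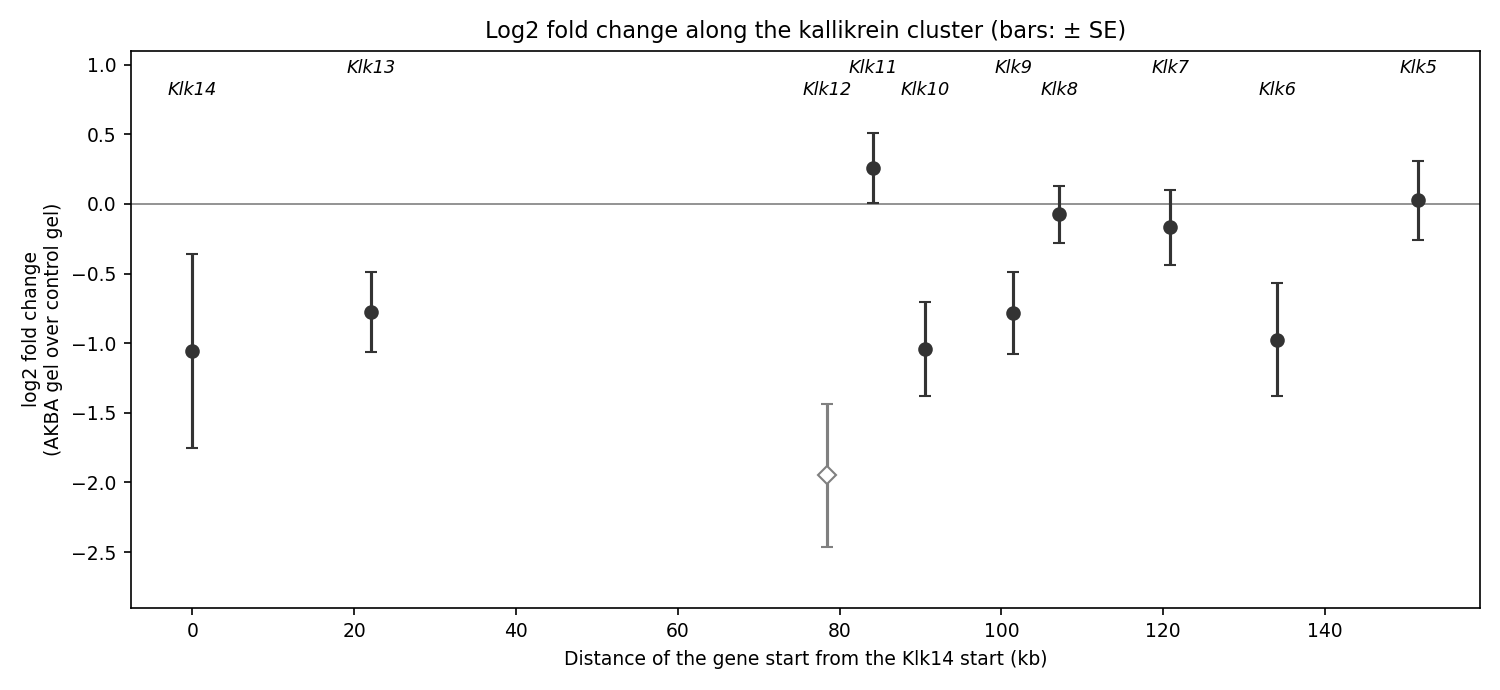
Log2 ratio of AKBA gel to control gel levels (y axis, bars are SE) against the distance of each gene's start from the start of Klk14 in kilobases (x axis); filled circles are members and the open diamond is Klk12, a kallikrein of the same cluster that is not a member. Klk10 at -1.04 and Klk9 at -0.78 stand beside Klk11 at 0.26 and Klk8 at -0.07.

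The start regions of 4 consecutive genes are printed because the log2 fold changes of the first 2, Klk10 and Klk9, were -1.04 and -0.78 and those of the next 2, Klk8 and Klk7, were -0.07 and -0.17. They are RefSeq promoter windows on GRCm38.p6, plus strand, with 250 bases before and 50 after the start site, at chr7:43780804-43781103 for Klk10, chr7:43791641-43791940 for Klk9, chr7:43797327-43797626 for Klk8 and chr7:43811044-43811343 for Klk7. Capitals mark GGGCGG, the GC box, read on the plus strand, or its reverse complement CCGCCC where it lies on the minus strand.
Klk10: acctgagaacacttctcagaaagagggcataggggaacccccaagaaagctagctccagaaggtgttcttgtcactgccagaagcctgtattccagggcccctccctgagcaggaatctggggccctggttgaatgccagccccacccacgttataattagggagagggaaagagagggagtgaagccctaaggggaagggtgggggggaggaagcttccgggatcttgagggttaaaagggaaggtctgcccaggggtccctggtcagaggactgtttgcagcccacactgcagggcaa
Klk9: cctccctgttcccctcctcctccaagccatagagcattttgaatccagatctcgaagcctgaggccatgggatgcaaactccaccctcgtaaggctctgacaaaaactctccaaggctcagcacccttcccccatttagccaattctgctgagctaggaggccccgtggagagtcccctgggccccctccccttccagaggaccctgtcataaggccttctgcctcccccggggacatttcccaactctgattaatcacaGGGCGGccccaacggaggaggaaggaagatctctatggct
Klk8: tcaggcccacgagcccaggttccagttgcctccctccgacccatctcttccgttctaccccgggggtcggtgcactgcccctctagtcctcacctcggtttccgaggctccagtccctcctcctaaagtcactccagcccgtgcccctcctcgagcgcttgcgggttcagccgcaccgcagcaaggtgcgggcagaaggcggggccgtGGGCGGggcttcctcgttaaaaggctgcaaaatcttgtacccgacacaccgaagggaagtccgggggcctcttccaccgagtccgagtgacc
Klk7: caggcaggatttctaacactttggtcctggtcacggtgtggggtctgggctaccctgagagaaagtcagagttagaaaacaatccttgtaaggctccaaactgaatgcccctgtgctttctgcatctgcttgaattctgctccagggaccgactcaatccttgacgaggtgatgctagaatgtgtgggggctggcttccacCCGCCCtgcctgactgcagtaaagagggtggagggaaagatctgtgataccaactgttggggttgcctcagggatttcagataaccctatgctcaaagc

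Promoter windows were found for 9 of 9 kallikreins, in 11 entries since Klk6 and Klk11 have more than 1. Motifs were searched on both strands: TATAAA, known from core promoters, TGANTCA, bound by AP-1 factors, AACNGGTT, bound by grainyhead factors, and GGGCGG, the GC box. TATAAA was in 13.6%, TGANTCA in 7.81%, AACNGGTT in 2.09% and GGGCGG in 35.7% of 32851 promoter windows of the same length. Of the kallikrein windows, only GGGCGG was found, in those of Klk6, Klk7, Klk8 and Klk9. The GC box thus occurred both in genes of the lower set (Klk6 and Klk9) and in genes near no difference (Klk7 and Klk8), and these letters are absent from the Klk10 window printed above.

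Reads of these genes can be told apart from other genes with 2 exceptions. The open reading frames of the 9 kallikreins were 57.7% to 66.5% identical over 36 pairs (median 62.5%), and no stretch of 50 bases of Klk5, Klk6, Klk7, Klk9, Klk10, Klk11 or Klk13 occurred in another gene's transcripts. Of Klk8, 21.7% of such stretches were shared with 2310002F09Rik, an antisense transcript on the minus strand, and of Klk14 20.99% were shared, nearly all with the same transcript. Strand-specific counting is not stated, so values of Klk8 and Klk14 are less certain; 2310002F09Rik itself had 65, 51 and 43 counts with AKBA gel and 36, 25 and 25 counts with control gel, against 4929 or more for Klk8. Klk14 had 325, 61 and 672 counts with AKBA gel and 807, 330 and 981 counts with control gel, so that in AKBA library 2 the antisense transcript, at 51 counts, came close to the 61 counts of Klk14.

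Spink5, the inhibitor, lies on chromosome 18 (GRCm38, 43963235 to 44022501). It had 1067, 910.2 and 639.6 CPM with AKBA gel, against 700.0, 547 and 1009 CPM with control gel. The highest value was AKBA library 1, and control library 3 was close to it, so the groups overlapped. The log2 fold change was 0.21 ± 0.28 (SE; edgeR adjusted p = 0.771), and leaving out each library in turn gave 0.03 to 0.48.

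Set against Spink5 within each library, the summed kallikrein level was lower with AKBA gel. The summed FPKM of the 9 kallikreins was 1700, 1513 and 1470 with AKBA gel and 1726, 1626 and 2709 with control gel. The ratio of this sum to Spink5 was 7.80, 8.06 and 10.3 with AKBA gel and 11.6, 13.8 and 14.01 with control gel, and the groups did not overlap. On the log2 scale it averaged 3.11 ± 0.22 with AKBA gel and 3.71 ± 0.15 with control gel (SD, n = 3 each), a difference of -0.60, given without a test. The difference was -0.72 to -0.52 with each library left out in turn, so its sign did not rest on 1 library.

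The ratio depended on which inhibitors were counted. Spink7, another Kazal-type inhibitor with a short transcript, had 91.8, 25.8 and 50.8 FPKM with AKBA gel, against 140.0, 176 and 302 FPKM with control gel. With Spink5 and Spink7 summed as the inhibitor level, an alternative chosen after seeing the data, the ratio was 5.49, 7.09 and 7.60 with AKBA gel and 5.96, 5.53 and 5.47 with control gel. The log2 difference turned to 0.24, while the same sum in CPM kept it at -0.51.

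The ratio to Spink5 was also taken for some of the kallikreins alone. The summed FPKM of Klk6, Klk9, Klk10 and Klk13 over that of Spink5 was 2.71, 2.12 and 3.87 with AKBA gel and 4.42, 6.68 and 6.83 with control gel, without overlap. For Klk7 it was 3.10, 3.25 and 3.97 with AKBA gel and 4.26, 4.24 and 4.54 with control gel, also without overlap. For Klk5 it was 0.729, 1.12 and 0.783 with AKBA gel and 0.955, 1.09 and 0.980 with control gel, with overlap. Because the 4 were chosen for their lower values, their ratio is a description only. Ratios of the other single kallikreins to Spink5 were not taken.

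**Figure D4:**
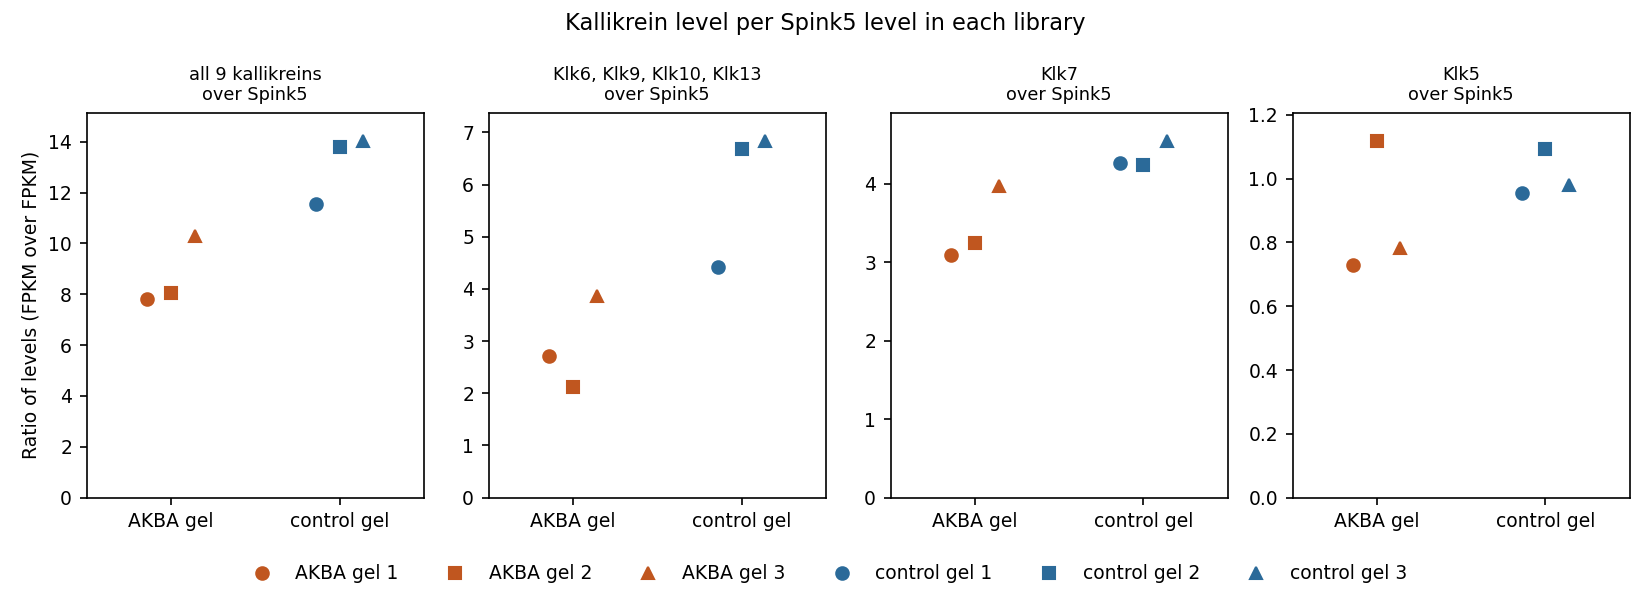
Kallikrein level divided by Spink5 level, both in FPKM (y axes, from 0), in each AKBA gel (orange, left) and control gel (blue, right) library. All 9 kallikreins together are at 7.80 to 10.3 with AKBA gel and 11.6 to 14.01 with control gel. Among the ratios drawn, that of Klk5 by itself overlaps between the groups.

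The deposited table holds 37 genes named Klk and a number, and 17 of those outside the members were listed, so not all were looked at. The listed ones were nearly silent: 16 of 17 did not pass the filter, and 10 of the 17 had no count in any library. The exception was Klk12, a trypsin-like protease gene of the same cluster (chromosome 7, 43768897 to 43773585), with 6.77, 2.60 and 6.39 CPM with AKBA gel and 11.05, 14.5 and 35.6 CPM with control gel. The groups did not overlap, and its log2 fold change was -1.95 ± 0.51 (SE; edgeR adjusted p = 0.331). In the authors' deposited table Klk12 is called, with a log2 fold change of -1.85 and a false discovery rate of 0.00206.

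Of 11 other Kazal-type inhibitors 3 were tested, and none was called. Spink7 had 24.2, 6.75 and 12.3 CPM with AKBA gel and 35.4, 44.1 and 84.8 CPM with control gel, with no overlap and a log2 fold change of -1.92 ± 0.49 (SE; edgeR adjusted p = 0.331). Spink12 averaged 3.45 ± 2.37 CPM in AKBA gel skin and 5.80 ± 2.82 CPM in control gel skin (SD, n = 3 each). Spink14 averaged 0.547 ± 0.159 CPM in AKBA gel skin and 0.484 ± 0.162 CPM in control gel skin (SD, n = 3 each), and both of these overlapped between the groups.

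Of 17 other epidermal proteases found, 0 were called, with a median log2 fold change of -0.10. At an unadjusted p below 0.05, 3 were lower, against 7.01% of all genes. These were Tmprss11a, Prss27 and Ctsc, named after their values were seen, with log2 fold changes of -1.42, -0.75 and -0.60. The abundant genes Asprv1, the retroviral-like protease that processes filaggrin in mice, and Ctsd, the lysosomal cathepsin D, had log2 fold changes of 0.32 ± 0.31 and -0.10 ± 0.23 (SE; edgeR adjusted p = 0.682 and 0.881). The membrane proteases St14 (matriptase) and Prss8 (prostasin) had log2 fold changes of 0.01 ± 0.20 and 0.31 ± 0.20 (SE; edgeR adjusted p = 0.992 and 0.535). Matriptase can activate kallikreins in mouse skin.

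Of 15 other protease inhibitors found, 0 were called, with a median log2 fold change of 0.18. At an unadjusted p below 0.05, 2 were higher and 1 lower, against 1098 higher and 1193 lower of all 17023 genes. Cst6, which encodes the cathepsin inhibitor cystatin M/E, had 1415, 1034 and 648 CPM with AKBA gel, against 564, 344 and 473 CPM with control gel. The groups did not overlap, and the log2 fold change was 1.17 ± 0.31 (SE; edgeR adjusted p = 0.331). Slpi, the secretory leukocyte protease inhibitor, was lower by fold, with 11.1, 3.56 and 14.8 CPM with AKBA gel and 26.4, 40.4 and 144.7 CPM with control gel. Its log2 fold change was -2.83 ± 0.74 (SE; edgeR adjusted p = 0.331), and the groups did not overlap. The other higher gene was Spint2, named after its values were seen, at 0.35 ± 0.14 (SE; edgeR adjusted p = 0.363), with overlap between the groups. Serpina3n averaged 160 FPKM in AKBA gel skin and 225 FPKM in control gel skin. Its log2 fold change was -0.52 ± 0.34 (SE; edgeR adjusted p = 0.536), and the groups overlapped. Serpinb5 (maspin) had a log2 fold change of 0.05 ± 0.22 (SE; edgeR adjusted p = 0.951).

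Of 9 corneodesmosome genes 0 were called, with a median log2 fold change of -0.16. Against 1098 higher and 1193 lower of all 17023 genes at an unadjusted p below 0.05, 1 of these 9 was higher and 1 lower. Cdsn, the corneodesmosin cut by kallikreins, averaged 1094 ± 299.7 CPM in AKBA gel skin and 1109 ± 294 CPM in control gel skin (SD, n = 3 each), a log2 fold change of -0.02 ± 0.27 (SE). Dsg1b (desmoglein 1 beta), the lower gene of this count, had 279, 215 and 208 CPM with AKBA gel and 286, 341 and 575 CPM with control gel, without overlap, a log2 fold change of -0.78 ± 0.27 (SE; edgeR adjusted p = 0.339). Dsg1c (desmoglein 1 gamma), the higher gene, had 1.23, 1.12 and 1.24 CPM with AKBA gel and 0.476, 0.568 and 0.767 CPM with control gel, a log2 fold change of 0.98 ± 0.29 (SE; edgeR adjusted p = 0.331), and both were named after their values were seen. Dsg1a (desmoglein 1 alpha) had a log2 fold change of 0.30 ± 0.20, Dsc1 (desmocollin 1) of -0.37 ± 0.25 and Dsp (desmoplakin) of -0.16 ± 0.23 (SE; edgeR adjusted p = 0.548, 0.544 and 0.793).

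A list of 14 genes joined kallikrein substrates and receptors with the transcription factors Grhl3, Ovol1, Zfp750, Elf3 and Vdr. Of these 14 genes 0 were called, with a median log2 fold change of -0.15. At an unadjusted p below 0.05, 1 was higher and 2 were lower, against 1098 higher and 1193 lower of all 17023 genes. The higher gene was Flg2, with a log2 fold change of 1.92 ± 0.49 (SE, edgeR adjusted p = 0.331). The lower genes were F2r at -0.53 ± 0.22 and Il1b at -1.93 ± 0.62 (SE, edgeR adjusted p = 0.360 and 0.336). These genes were named after their values were seen. Flg, the barrier protein filaggrin, had a log2 fold change of 0.79 ± 0.34 (SE; edgeR adjusted p = 0.372), and Smpd1, an acid sphingomyelinase, of -0.18 ± 0.26 (SE; edgeR adjusted p = 0.791). F2rl1, the receptor PAR2 that KLK5 and KLK14 activate in human cells, averaged 30.0 ± 1.37 CPM in AKBA gel skin and 30.0 ± 6.57 CPM in control gel skin (SD, n = 3 each). Camp, the cathelicidin precursor that KLK5 processes in human skin, was near the floor at 0.343 to 1.02 CPM with AKBA gel and 0.262 to 0.862 CPM with control gel.

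The genes whose profile over the 6 libraries was nearest to 3 members were sought among 12251 genes with a mean of at least 5 CPM, by the root mean square difference of log2 CPM centred per gene. For Klk6 they were Fabp5 (0.12), Krt14 (0.18) and Gk (0.20), of which Fabp5 encodes an epidermal fatty acid binding protein and Krt14 a basal keratin. For Klk7 they were Mxd1 (0.07), Olfm2 (0.07) and Slc28a3 (0.08). For Spink5 they were Lgals7 (0.06), Sh3bgr (0.07) and Myot (0.08), of which Lgals7 encodes galectin-7 of stratified epithelia. By the same measure Klk6 was 0.33 from Klk10, 0.35 from Klk13 and 0.63 from Klk7, while Klk7 was 0.13 from Klk8 and 0.21 from Spink5.

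Among the marker lists, granular and cornified layer genes were mostly higher by fold with AKBA gel, with a median log2 fold change of 0.56. At an unadjusted p below 0.05, 7 of 18 tested were higher and 0 lower. Of all 17023 genes, 1098 were higher and 1193 (7.01%) lower at that threshold. Markers of stressed and hyperproliferative epidermis ran lower. All 9 of them were lower by fold with AKBA gel, 7 at an unadjusted p below 0.05, with a median log2 fold change of -1.80. Their summed level was 2067 to 6558 CPM with AKBA gel, against 8476 to 36652 CPM with control gel, lowest in AKBA library 2 and highest in control library 3. Basal keratinocyte markers summed to 11708 to 16240 CPM with AKBA gel, against 15085 to 33679 CPM with control gel, and neutrophil markers, which share S100a8 and S100a9 with the stress list and have 1 of 8 genes, the defining Ly6g, at 0, to 312 to 844 CPM with AKBA gel, against 711 to 3392 CPM with control gel. Macrophage markers summed to 1529 to 1661 CPM with AKBA gel, against 1704 to 2346 CPM with control gel, and immediate early genes to 376 to 398 CPM with AKBA gel, against 408 to 765 CPM with control gel. Sebaceous gland markers summed to 679 to 1369 CPM in AKBA gel skin and 385 to 743 CPM in control gel skin, hair follicle markers to 33.8 to 2269 CPM in AKBA gel skin and 111 to 3207 CPM in control gel skin, and T cell markers to 21.8 to 37.7 CPM in AKBA gel skin and 30.0 to 47.0 CPM in control gel skin. The stress, macrophage and immediate early sums did not overlap between the groups, the others did, and no gene of any marker list was called by edgeR. The part of these shifts in the lower kallikrein values was not tested.

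**Figure D5:**
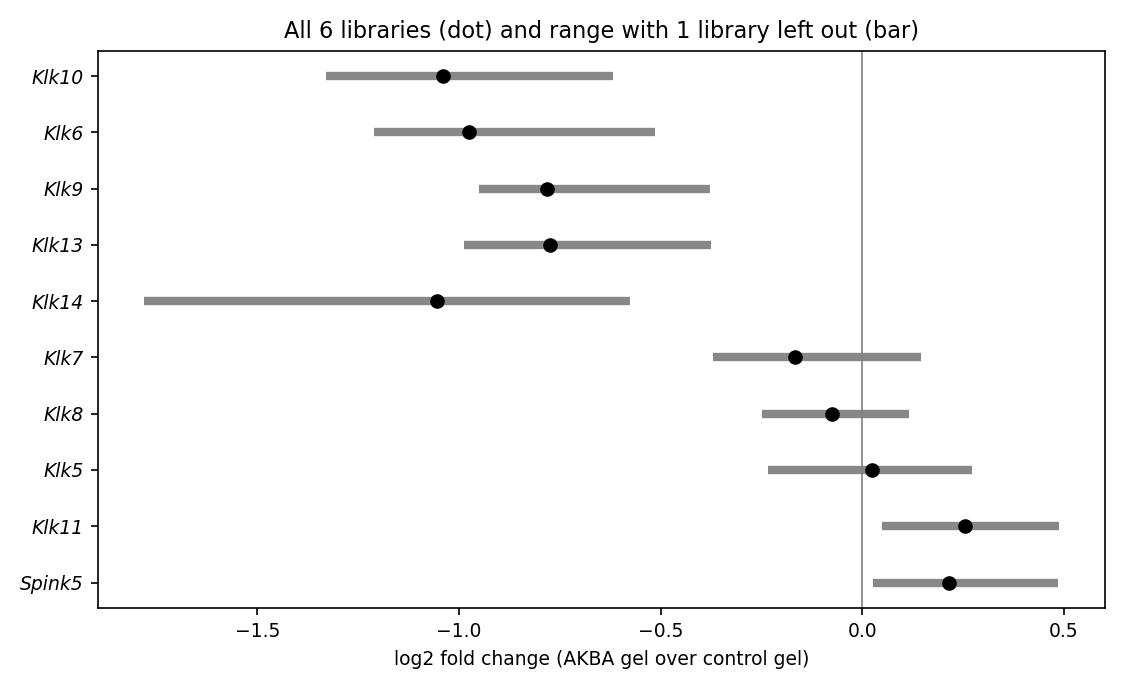
Log2 ratio of AKBA gel to control gel levels (x axis) for each gene with all 6 libraries (dots) and its range when each library is left out in turn (bars). Klk6, Klk9, Klk10, Klk13 and Klk14 stay below 0, Klk11 and Spink5 stay above 0, and Klk5, Klk7 and Klk8 cross it.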

How the data were processed

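RNA of mouse epidermis was sequenced on an Illumina HiSeq from TruSeq libraries, per the labels' protocols. The authors deposited 1 table holding counts and FPKM values per gene and library beside their own log2 fold change, p-value and adjusted p-value (false discovery rate). CASAVA 1.8, RSEM, edgeR and the build GRCm38 are named in the submitters' processing notes, without their roles. The sources used here give no annotation release or strand setting and do not say whether the whole-number counts were rounded. The deposited FPKM values match counts divided by column total and by 1 length per gene: over 9795 genes with at least 200 counts per library, the length this implies varied across libraries by no more than 1.02 times.

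Deposited counts were tested in edgeR 4.0.16 (R 4.3.3; TMM scaling, default filter, 2-sided quasi-likelihood F test, Benjamini-Hochberg over 17023 genes, threshold 0.05); the SE is the size of the log2 fold change over the square root of F. The fit was tested on simulated data. DESeq2 1.42.0, other scalings and filters, a replicate block, each library left out, and AKBA library 2 with control library 3 left out were alternatives. Replicate pairs differed beyond sampling noise (30.8 to 91.7 as chi-square per degree of freedom), so no pair was taken for repeat deposits of 1 library; this does not show that they came from separate animals. At 19066045 to 22760432 counts, the floor of 3 counts covers counting error only. The members and lists were chosen with earlier results of these data known. Named were all members, tested kallikreins and Kazal-type inhibitors, the called or else the 2 most abundant genes of each pathway list, 9 fixed genes, and 3 nearest profiles for Klk6, Klk7 and Spink5. Serpinb5 was named in addition, and a few more genes were named after their values were seen, as said where they appear.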

Additional observations from a re-analysis of the deposited data

How the results depend on the processing

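No member was called under any of the 12 alternatives. Over all genes, 0 to 14 were called with 1 library left out, the 14 (13 lower, 1 higher) without control replicate 1, and 289 (201 lower, 88 higher) by DESeq2; the cause was not tested. The members' median log2 fold change was -0.66 to -0.13 with 1 library left out, -0.13 of it without control library 3, and -0.10 without AKBA library 2 and control library 3. For Klk6, Klk10, Klk13 and Klk14 that pair holds the lowest AKBA and the highest control value, so leaving it out had to shrink their differences. Of 120 values of single members, 112 kept their direction. With 1 library left out, Klk5 ranged from -0.23 to 0.27, Klk7 from -0.37 to 0.15 and Klk8 from -0.25 to 0.12. Klk5 turned to -0.23 without AKBA library 2, -0.04 without control library 1 and -0.12 without control library 2. Klk8 turned to 0.04 without AKBA library 3, 0.12 without control library 3 and 0.030 without the pair. Klk7 turned to 0.15 without control library 3 and 0.14 without the pair. The ratio to Spink5 had a log2 difference of -0.72 to -0.52 with 1 library left out. It turned to 0.24 with Spink5 and Spink7 summed, an alternative chosen after seeing the data. In control gel skin Spink7 averaged 206 FPKM, against 154 FPKM for Spink5. In AKBA gel skin Spink7 averaged 56.1 FPKM, against 183 FPKM for Spink5.

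No label pairs the same-numbered libraries. Correlations of their deviations were 0.07, 0.02 and -0.33, and those of differently numbered libraries ran from -0.48 to 0.43. With 3 libraries a group, these values cannot show whether libraries were paired. With the replicate block 0 genes and 0 members were called, the members' median was -0.41, and 1857 genes had an unadjusted p below 0.05, against 2291 without the block. Each group had only 3 libraries. Log2 fold changes of -1.95 for Klk12 and -2.83 for Slpi were not called by edgeR either, and the cause was not tested.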
